A study of Ovis aries with 16 samples.

Results

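The genes described here are the short expressed genes of sheep fat: rows of the deposited count table with an exon length under 200 bases and a count of at least 10 in at least 4 of the 8 subcutaneous libraries, MIR143 left out. The rule gave 206 genes of 28524 in the table. Of the 4035 rows under 200 bases, 1613 had a count in any library. By the gene types of a RefSeq table, the members were 135 small nucleolar RNA (snoRNA) genes, 20 small nuclear RNA (snRNA) genes, 16 transfer RNA (tRNA) genes, 11 genes of other non-coding RNA (ncRNA), 7 ribosomal RNA (rRNA) genes and 4 microRNA genes. The other 13 had no match in that table and are called unmatched. Length and count were what the rule read, so both hold for every member by construction.

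RNA was sequenced from 2 fat depots of adult female sheep, 21 months old, after their mothers had been injected every day from day 30 to day 90 of pregnancy (term 147 days). Control mothers received corn oil alone, and the others received bisphenol A (BPA), a plastics monomer, at 0.5 mg/kg/day in that oil. All daughters were kept on a diet meant to prevent obesity, and their cycles were synchronized with prostaglandin, with tissue taken 24 hours after the last injection. Visceral fat came from the mesentery around the rumen and subcutaneous fat from over the sternum, which gave 4 groups of 4 libraries: visceral control, visceral BPA, subcutaneous control and subcutaneous BPA. In every group ribosomal RNA was depleted first, and a kit for low input then made the libraries. Libraries are named by the number that opens their title. Of these numbers, 902, 924 and 928 occur among controls of both depots, and 918 and 977 among BPA libraries of both. The labels do not say that each number is a separate animal, so p-values measure the spread between these libraries.

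Short non-coding RNAs are made by several routes. Most snoRNAs of mammals are cut from introns of longer host genes and guide chemical modification of ribosomal and spliceosomal RNA, while snRNAs form the core of the splicing machinery. Transfer RNAs and the smallest ribosomal RNA are transcribed by RNA polymerase III as short genes of their own, and microRNAs are trimmed from hairpins to repress messenger RNAs.

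The members took a small part of each library. Library totals were 4738482 to 6223460 counts in subcutaneous controls and 3046126 to 4828287 in subcutaneous BPA libraries. They were 10998858 to 13110261 in visceral controls and 6768945 to 14305764 in visceral BPA libraries. Adipocyte markers were abundant in every library, with a summed level from 10682 to 28428 CPM, a unit that scales each count to the size of its library.

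In subcutaneous fat, all 4 BPA libraries gave a larger share of their counts to the members than any control. The share was 0.342, 0.332, 0.344 and 0.436% in controls 902, 924, 928 and 931. It was 0.709, 1.16, 1.28 and 0.644% in BPA libraries 918, 922, 941 and 977. The means were 0.363 ± 0.0484% in controls and 0.949 ± 0.319% in BPA libraries (SD, n = 4), a ratio of 2.61. Libraries 922 and 941 stood above the other BPA pair. They also had the lowest totals of that group, 4314984 and 3046126 counts, against 4828287 and 4349021 in 918 and 977. Control 931, with the highest control share, had the lowest control total, 4738482 counts. The members were chosen by counts in these same libraries, so this is a description with no test. In bulk tissue, fewer cells of a type and less RNA per cell cannot be told apart.

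In visceral fat, the groups overlapped. Controls 902, 908, 924 and 928 gave 0.352, 0.232, 0.391 and 0.300% of their counts to the members. BPA libraries 910, 918, 977 and 984 gave 0.324, 0.647, 1.09 and 0.257%. Libraries 918 and 977 lay above all controls, while 910 and 984 lay within them. The means were 0.319 ± 0.0688% and 0.580 ± 0.382% (SD, n = 4), a difference of 0.262 percentage points, or 0.0908 without library 977. Of the visceral BPA libraries, 977 and 918 also had the lowest totals, 6768945 and 9035630 counts, against 9604422 and 14305764 in 910 and 984.

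**Figure D1:**
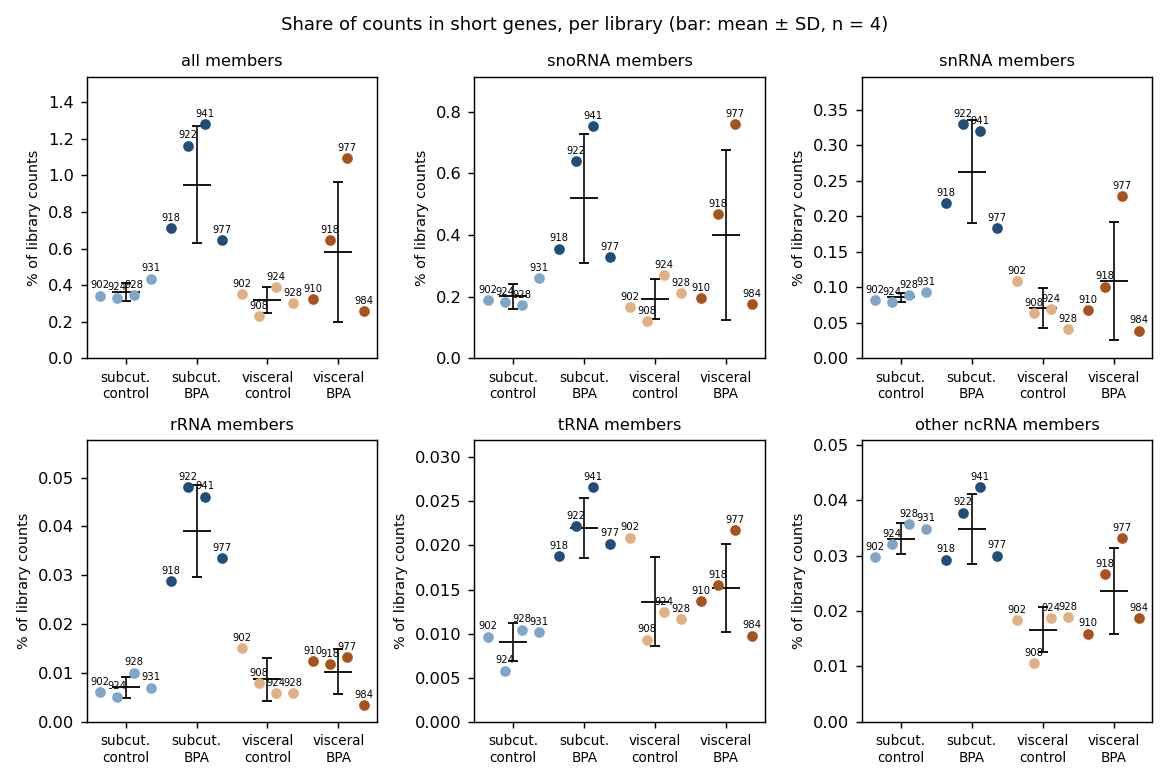
Each point is 1 library, the vertical axis is the percent of its counts in the named members, the axis starts at 0, and bars give the group mean ± SD (n = 4). The subcutaneous BPA points lie above all subcutaneous controls for all members, snoRNA, snRNA, rRNA and tRNA members, while the groups overlap for other ncRNA and, in visceral fat, in every panel.

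The types did not share this difference evenly. In subcutaneous fat the ratio of mean shares, BPA over control, was 5.53 for rRNA members, 3.06 for snRNA, 2.74 for unmatched, 2.58 for snoRNA, 2.43 for tRNA, 1.67 for microRNA and 1.05 for other ncRNA. In visceral fat the ratio was 2.64 for microRNA, 2.08 for snoRNA, 1.54 for snRNA, 1.42 for other ncRNA, 1.18 for rRNA, 1.14 for unmatched and 1.12 for tRNA members. Differences between these ratios were not tested. A share is a sum, so its most abundant genes weigh most, and log2 fold changes per gene (below) can differ. Of the 11 other ncRNA members in subcutaneous fat, 10 were estimated higher and 1, the abundant LOC114117094, lower (median log2 fold change 1.15). In visceral fat 8 of 17 tested snRNA members were estimated higher and 9 lower (median -0.01). The 3 tested microRNA members had a median of 0.49 there, with MIR3955 at 1.57.

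How members passed the rule bears on these counts. A count of 10 was reached in all 8 subcutaneous libraries by 137 members. It was reached in all 4 BPA libraries but in fewer than 4 controls by 46, of which 9 reached it in no control. In all 4 controls but fewer than 4 BPA libraries it was reached by 2 members, and by no member in all controls and no BPA library. Just inside the length limit were LOC114110196 and LOC114117117, both snRNA genes of 191 bases, and just outside were LOC114115071 and LOC114113368, snoRNA genes of 200 and 204 bases. Just inside the count limit, the snoRNA gene LOC114109245 had 23, 13, 13 and 5 counts in controls and 7, 10, 5 and 3 in BPA libraries, and LOC114113382 had 6, 7, 10 and 17 against 3, 17, 13 and 4. Just outside it, LOC114110201 had 5, 7, 16 and 6 counts against 9, 20, 31 and 9, and LOC114110711 had 4, 8, 5 and 9 against 13, 15, 14 and 9.

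Fold changes came from edgeR's quasi-likelihood test over all genes that passed a filter on low counts, and a gene was called at a Benjamini-Hochberg adjusted p under 0.05. In subcutaneous fat, 201 members were tested, 71 were called higher in BPA libraries and 0 lower. Of all 13535 genes tested, 0.606% were called higher and 0.103% lower. The median log2 fold change was 1.56 over the members and -0.0057 over all genes, and 192 members had a higher estimate. The groups did not overlap, with BPA higher, for 125 members (62.2%), against 4.27% of all genes. Since the rule read these libraries, nothing is drawn from these shares. Leaving out control 902, 924 or 928 gave 27, 23 and 30 called members in place of 71, and leaving out BPA library 922 or 941 gave 30 and 32. Leaving out controls 902 and 924 together, an alternative chosen after the data were seen, gave 0. Shares of all genes called in these omissions are not given, so the counts only describe how calls moved.

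In visceral fat, whose libraries the rule did not read, edgeR called 0 of 196 members tested and 0% of all 14774 genes. At an unadjusted p under 0.05 there were 57 members and 1103 genes in all, the smallest adjusted p was 0.658, and DESeq2 called 1 member among 6 genes. The members' median log2 fold change was 0.72 against 0.0019 over all genes, with 158 higher and 38 lower estimates. BPA lay above control without overlap for 4 members (2.04%), against 2.08% of all genes, and below it for 0 members, against 1.95% of all genes. The median was 0.40 without library 977 and 0.16 with the library total as a covariate. It reached 0.94 at most with 1 library left out, and 0.90 with every library thinned at random to the lowest total.

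**Figure D2:**
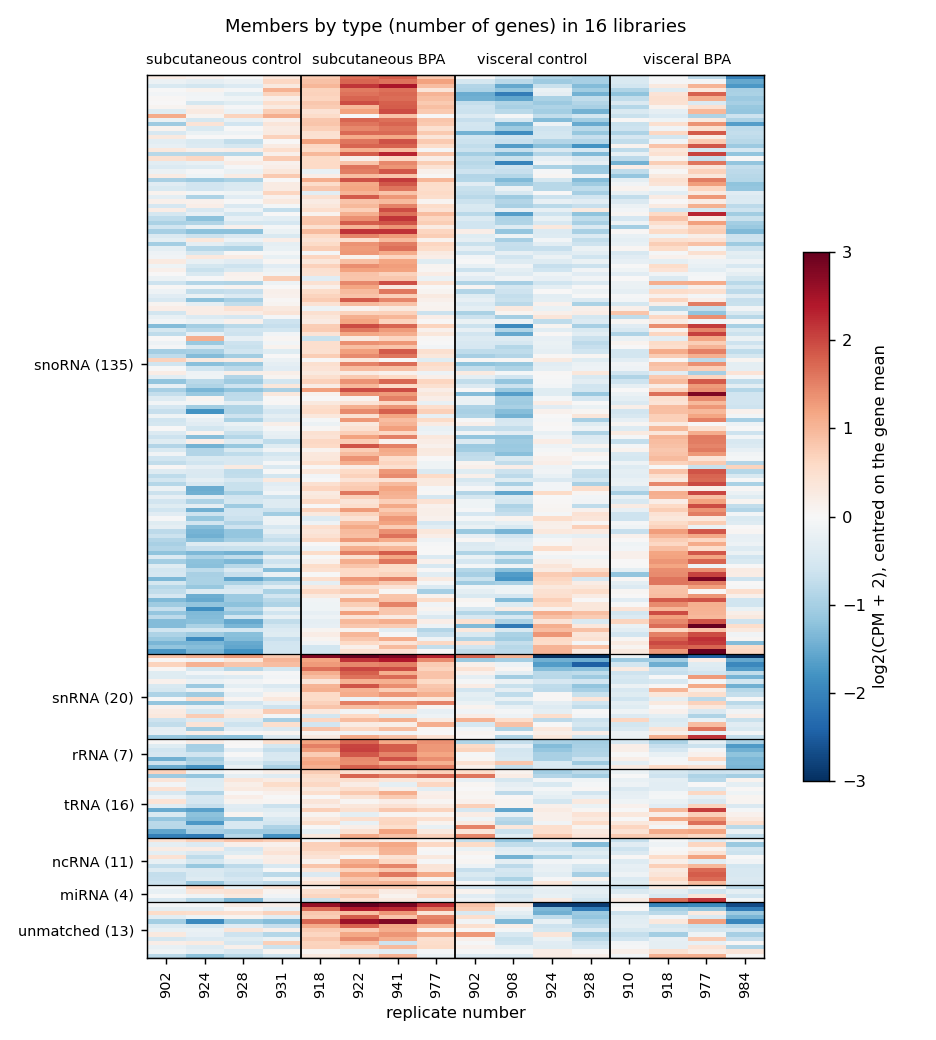
Rows are the 206 members, grouped by type, columns are the 16 libraries, and colour is log2(CPM + 2) centred on each gene's mean over the libraries. Most rows are above their mean in the 4 subcutaneous BPA libraries. Visceral BPA libraries 918 and 977 are above it for most snoRNA rows and 910 and 984 are not.

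The fold changes of all genes were also set in order of length. Over all genes tested in subcutaneous fat, the median log2 fold change was 1.88 under 80 bases, 1.42 from 80, 1.41 from 100 and 1.70 from 150 to under 200 bases. It was 0.48 in the 19 genes of 200 to under 300 bases, where 3 were called higher, and -0.07 in the 106 genes of 300 to under 500. In visceral fat the same classes had 0.68, 0.59, 0.74 and 0.41 under 200 bases, 0.47 in the 20 genes of 200 to under 300 and -0.14 from 300 to under 500. Classes under 200 bases held mostly snoRNA, snRNA and tRNA genes, and those from 300 bases on mostly protein-coding genes, so length and type cannot be told apart. Of the 19 genes of 200 to under 300 bases in subcutaneous fat, 8 were snoRNA genes, from -0.94 ± 1.16 (SE) to 1.95 ± 0.27. Those just past the limit included LOC114115071 at 1.08 ± 0.20 and LOC114113368 at 0.07 ± 0.19. Leaving the tRNA genes apart, 16 of 35 tested members under 80 bases were called higher in subcutaneous fat (all genes 0.606%), 6 of 28 from 80 to under 100, 30 of 101 from 100 to under 150 and 15 of 22 from 150 to under 200.

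**Figure D3:**
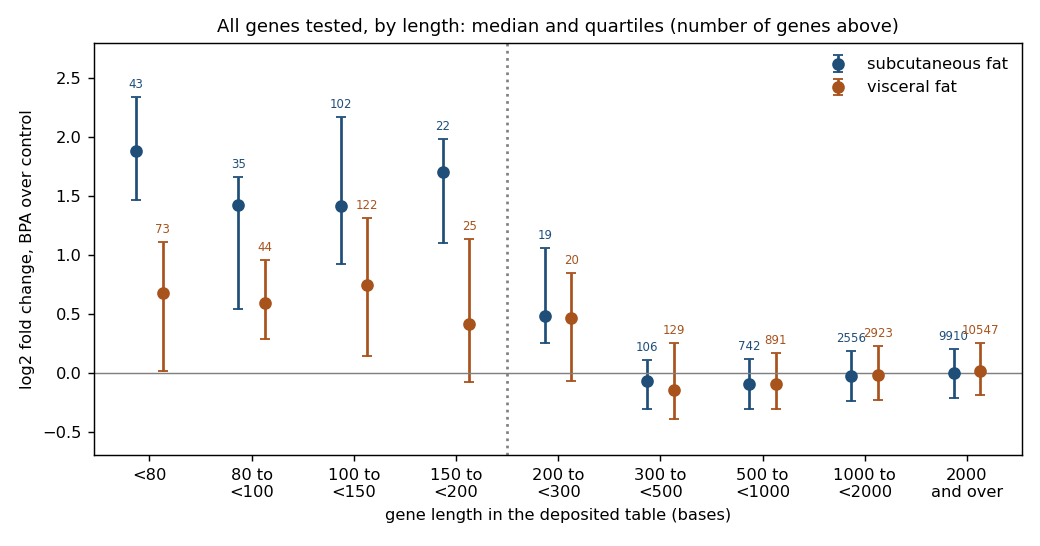
Points are the median log2 fold change, BPA over control, of all genes tested in a class of exon length, bars run between the quartiles, and the number of genes stands above each bar. Medians lie between 1.41 and 1.88 under 200 bases in subcutaneous fat and between -0.14 and 0.01 from 300 bases on in both depots.

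The 135 snoRNA genes held the largest part of the members' counts. Their share was 0.188, 0.183, 0.173 and 0.262% in subcutaneous controls and 0.356, 0.639, 0.753 and 0.328% in subcutaneous BPA libraries. The visceral share was 0.165, 0.122, 0.271 and 0.211% in controls and 0.196, 0.469, 0.761 and 0.175% in BPA libraries. Of 132 tested in subcutaneous fat, 40 were called higher and 0 lower (all genes 0.606% and 0.103%), with a median log2 fold change of 1.49 and a range from -0.61 to 2.98. In visceral fat 122 of 133 had higher estimates and 0 were called, with a median of 1.0.

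LOC114116239 and LOC114116240, snoRNA genes of 130 and 77 bases, lie in introns of RPS12, a gene of the small ribosomal subunit, on chromosome 8 (64309945 to 64310074 and 64308778 to 64308854). LOC114116239 had 6.70, 4.65, 5.48 and 6.75 CPM in subcutaneous controls and 38.3, 65.2, 64.8 and 17.7 CPM in BPA libraries, with library 977 lowest but above every control. Its visceral levels overlapped, at 15.5, 5.96, 11.5 and 9.76 CPM in controls and 15.4, 25.2, 42.4 and 7.53 CPM in BPA libraries. The log2 fold changes were 2.98 ± 0.38 in subcutaneous and 1.08 ± 0.47 in visceral fat. LOC114116240 was lower in level, at 0.516 to 1.64 CPM in subcutaneous controls and 3.36 to 12.6 CPM in BPA libraries, with a log2 fold change of 2.97 ± 0.49. LOC114114237, of 76 bases in an intron of WDR43, a ribosome assembly gene, had 0.688 to 1.10 CPM in subcutaneous controls and 4.33 to 9.70 CPM in BPA libraries. It reached a count of 10 in no subcutaneous control, so it passed the rule through BPA libraries alone. Its visceral groups overlapped.

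Among the abundant short snoRNA genes, LOC114117067, of 70 bases on chromosome 11 (14604023 to 14604092) and outside any longer gene, had 35.3, 28.9, 28.5 and 49.3 CPM in subcutaneous controls and 76.0, 153, 217 and 75.1 CPM in BPA libraries. In visceral fat it had 28.3, 26.6, 35.8 and 40.4 CPM in controls and 48.5, 120, 122 and 30.7 CPM in BPA libraries. Library 984 lay within the visceral controls and the other 3 above them. LOC114110200, of 74 bases in the long non-coding gene LOC114110053, had 9.71 to 14.5 CPM in subcutaneous controls and 29.2 to 108 CPM in BPA libraries (log2 2.55 ± 0.38). LOC114114212, of 75 bases in RPL7A, a large-subunit ribosomal protein gene, had 29.8 to 63.2 against 76.9 to 175 CPM. Of the other abundant members under 100 bases, LOC114116491, LOC114117420 and LOC114118112 had log2 fold changes of 1.84 ± 0.34, 1.17 ± 0.32 and 1.66 ± 0.24 in subcutaneous fat and 0.75 ± 0.40, 0.58 ± 0.28 and 1.26 ± 0.39 in visceral fat.

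Not every snoRNA gene had a higher estimate. LOC114110219, of 80 bases in CEP295, a centriole gene, had 55.1, 25.6, 40.1 and 54.4 CPM in subcutaneous controls and 36.3, 24.4, 45.7 and 24.7 CPM in BPA libraries. Its groups overlapped, with a log2 fold change of -0.42 ± 0.27, and the other member in CEP295 had -0.14. LOC114117101, of 141 bases in EIF4A1, a translation initiation helicase gene, had 170 to 210 CPM in controls and 181 to 333 CPM in BPA libraries (log2 0.45 ± 0.20). LOC114109245, in EIF5, had the lowest estimate of all members, -0.61 ± 0.49, at 0.673 to 3.58 CPM.

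The 8 members of smallest p in visceral fat were 7 snoRNA genes and 1 ncRNA gene, all at an adjusted p of 0.658 by edgeR. LOC114113403, of 126 bases in the long non-coding gene LOC101102543, had 11.1, 4.92, 7.16 and 4.31 CPM in visceral controls and 21.5, 37.7, 77.4 and 8.35 CPM in BPA libraries (log2 2.39 ± 0.59). LOC114117716, of 134 bases in LOC105606886, had 9.62, 7.09, 20.4 and 11.2 CPM in controls and 23.4, 88.5, 200 and 16.9 CPM in BPA libraries (log2 2.76 ± 0.71). In both, library 977 was highest and library 984 lay within the controls. LOC114117661, of 92 bases, was 1 of 4 members whose visceral groups did not overlap, at 5.25 to 13.3 CPM in controls and 13.5 to 46.6 CPM in BPA libraries (log2 1.61 ± 0.45). The ncRNA gene LOC114110526, of 142 bases, was another, at 12.9 to 37.6 CPM against 38.0 to 89.2 CPM (log2 1.24 ± 0.36), while its subcutaneous groups overlapped. LOC114114647 in TBRG4, LOC114111305 in KHDC4, LOC114117713 in LOC105616742 and LOC114114261 in RNF149 had log2 fold changes of 1.01 to 2.12.

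Most members could be set beside the gene that holds them. An intron of a longer gene on the same strand held 145 members, 127 of them snoRNA genes, 5 lay in an intron on the opposite strand only, 55 lay outside any longer gene and 1 overlapped an exon. These places come from the positions in the deposited table, whose build is not named. The strand setting of the counting is not given, and intronic reads of a host transcript that cover a member would count for the member. For 140 members tested with their host in subcutaneous fat, the median log2 fold change was 1.48 for the members and -0.01 for the hosts, and 133 members had the higher estimate. The 99 hosts ran from -0.69 to 0.74 with 0 called (0.709% of all genes were called), and Pearson's r across pairs was 0.04, a description over genes that share libraries. In visceral fat 124 of 140 members lay above their host, with medians of 0.91 and -0.08.

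**Figure D4:**
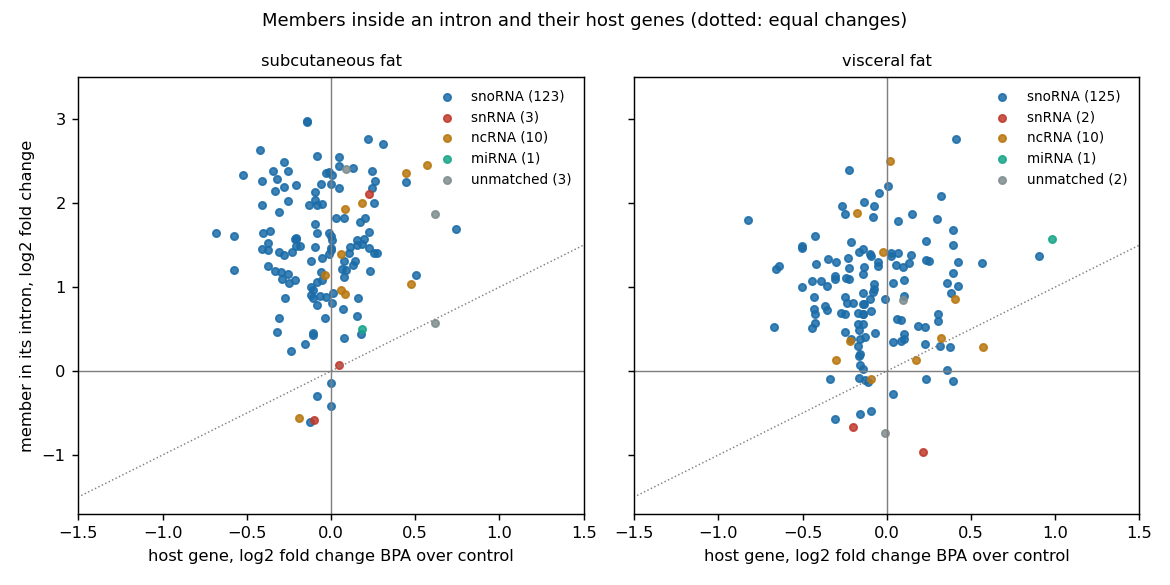
Each point is a member inside an intron, with its host gene's log2 fold change, BPA over control, on the horizontal axis and its own on the vertical axis. Members lie above the dotted line of equal change in 133 of 140 pairs in subcutaneous fat and 124 of 140 in visceral fat.

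Members of 1 host share a transcript and are not independent, and 29 hosts held 71 members. The 4 members in RPL13A, a large-subunit ribosomal protein gene, had log2 fold changes of 1.49 to 2.21 in subcutaneous fat, while RPL13A itself had -0.21. The 4 members in EIF4A1 had 0.43 to 0.96 beside a host at -0.11. The 3 in EIF4A2, a related helicase gene, ran from -0.30 to 1.98 beside a host at -0.08. Members of 1 host thus lay close together in RPL13A and apart in EIF4A2.

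The 20 snRNA genes were described by length, with no test between classes. All 8 members of 164 bases had higher estimates in subcutaneous fat, 6 were called higher (all genes 0.606%), and the median log2 fold change was 1.80. The 4 members of 117 to 141 bases had a median of 1.74, with 2 called, and the 6 of 104 to 107 bases had 0.41, from -0.59 to 2.72, with 1 called. In visceral fat the medians of these classes were 0.53, 0.57 and -0.62, with 0 called. The snRNA and rRNA genes belong to families of near-identical copies, and the setting for reads that match several copies is not given, so any single copy is uncertain.

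LOC114115462, a 164-base snRNA gene on chromosome 6 (100551608 to 100551771), had 213, 204, 210 and 261 CPM in subcutaneous controls and 523, 858, 904 and 506 CPM in BPA libraries. The groups were far apart (log2 1.66 ± 0.22), with libraries 922 and 941 highest. Its visceral levels were 229, 133, 154 and 131 CPM in controls and 197, 273, 676 and 104 CPM in BPA libraries, which overlapped. LOC114110196, of 191 bases, had 100 to 174 CPM against 216 to 396 CPM in subcutaneous fat (log2 1.15 ± 0.22), and the other gene of that length, LOC114117117, had -0.22 ± 0.32. Among the 104-base to 107-base genes, LOC114116271 had 3.68 to 8.09 CPM in subcutaneous controls and 2.06 to 6.99 CPM in BPA libraries (log2 -0.59 ± 0.42). In the same class LOC114109273 had 2.19 to 5.76 CPM against 10.1 to 28.6 CPM (log2 2.59 ± 0.38).

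A few members differed more between visceral libraries than between treatments. LOC114111401, a 164-base snRNA gene on chromosome 1 (105452915 to 105453078), had 349 and 213 CPM in visceral controls 902 and 908 but 6.38 and 3.82 CPM in controls 924 and 928. The visceral BPA libraries had 91.2, 10.4, 16.9 and 2.56 CPM in 910, 918, 977 and 984. Low and high libraries thus occurred in both visceral groups. Subcutaneous fat showed no such split, with 181, 211, 248 and 177 CPM in controls and 705, 1060, 730 and 508 CPM in BPA libraries, numbers 924, 928, 918 and 977 among them. The log2 fold change was 1.88 ± 0.22 in subcutaneous fat and -2.24 ± 1.32 in visceral fat (adjusted p = 0.676, edgeR).

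LOC114111409, an unmatched gene of 167 bases on the same chromosome (105148675 to 105148841), followed the same libraries. It had 43.0, 29.6, 1.47 and 1.46 CPM in visceral controls and 21.1, 4.21, 4.64 and 1.88 CPM in visceral BPA libraries. In subcutaneous fat it had 21.6 to 27.4 CPM in controls and 114 to 231 CPM in BPA libraries, a log2 fold change of 2.78 ± 0.22. The snoRNA gene LOC114108883, of 130 bases in EP400, a chromatin remodelling gene on chromosome 17, was low where these were high. It had 70.4, 39.7, 375 and 225 CPM in visceral controls, and 157, 575, 1479 and 260 CPM in BPA libraries 910, 918, 977 and 984. Its subcutaneous levels ran from 68.3 to 121 CPM in controls and from 151 to 317 CPM in BPA libraries. In a principal component analysis of the members, the first component held 59.7% of the variance and followed the overall level. The next held 23.0%: subcutaneous libraries lay from -5.13 to -3.33, visceral controls 902 and 908 at -2.88 and -3.15 and BPA library 910 at 0.776, and the other 5 visceral libraries from 6.43 to 10.03. What sets these libraries apart was not tested.

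The 7 rRNA genes, 6 of them 119 bases long, had the largest ratio of shares in subcutaneous fat. LOC114110876, on chromosome 25 (2393631 to 2393749), had 26.0, 19.8, 31.5 and 23.9 CPM in subcutaneous controls and 102, 176, 147 and 103 CPM in BPA libraries. LOC114116728, on chromosome 10 (93899284 to 93899402), had 14.9, 11.9, 38.1 and 22.1 CPM in controls and 96.0, 161, 145 and 133 CPM in BPA libraries. In both, every BPA library lay above every control, and the log2 fold changes were 2.38 ± 0.22 and 2.62 ± 0.33. All 7 rRNA members were called higher there (all genes 0.606%), from 1.67 to 2.68. In visceral fat 3 of 6 had higher and 3 lower estimates, from -0.67 to 0.57, and their share was 0.0150, 0.00797, 0.00579 and 0.00592% in controls and 0.0125, 0.0117, 0.0133 and 0.00333% in BPA libraries. Ribosomal RNA had been depleted before sequencing, so these levels are what remained after that step.

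The 16 tRNA genes all lie outside longer genes, and 9 are under 80 bases. Their share was 0.00966, 0.00581, 0.0105 and 0.0102% in subcutaneous controls and 0.0188, 0.0222, 0.0266 and 0.0202% in BPA libraries, without overlap. The visceral share was 0.0209, 0.00933, 0.0125 and 0.0117% in controls and 0.0137, 0.0155, 0.0218 and 0.00977% in BPA libraries, where controls reached as high as all but library 977. Of 15 tested in subcutaneous fat, 14 had higher estimates and 4 were called higher (all genes 0.606%), with a median log2 fold change of 1.38. In visceral fat 6 of 16 had higher estimates, with a median of -0.03 and 0 called. Each name stands for 1 copy of a gene family, so single copies are uncertain.

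TRNAK-CUU_8, a lysine tRNA gene on chromosome 7 (73062319 to 73062391), had 4.67, 4.30, 12.8 and 5.93 CPM in subcutaneous controls and 31.7, 56.6, 47.8 and 41.7 CPM in BPA libraries. Its visceral levels were 71.4, 19.8, 44.1 and 33.9 CPM in controls and 44.5, 43.0, 39.4 and 14.2 CPM in BPA libraries. Subcutaneous controls were thus the 4 lowest libraries, and the other 3 groups overlapped. Its log2 fold change, BPA over control, was 2.67 ± 0.34 in subcutaneous and -0.26 ± 0.41 in visceral fat. TRNAM-CAU_7, a methionine tRNA gene, had 1.03 to 3.76 CPM in subcutaneous controls and 8.24 to 21.0 CPM in BPA libraries (log2 2.87 ± 0.45). Its visceral levels were 19.1, 6.05, 1.72 and 1.38 CPM in controls and 4.79, 2.51, 1.65 and 1.43 CPM in BPA libraries, highest in controls 902 and 908.

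The arginine tRNA genes TRNAR-CCU_7 and TRNAR-CCG_1 had log2 fold changes of 2.86 ± 0.53 and 1.97 ± 0.32 in subcutaneous fat and 0.68 ± 0.44 and 1.01 ± 0.40 in visceral fat. TRNAR-CCU_7 rested on low counts, at 2, 8, 8 and 6 in controls and 17, 32, 47 and 28 in BPA libraries. It and TRNAL-CAA_5 reached a count of 10 in no control, so both passed the rule through BPA libraries alone. The glutamate gene TRNAE-UUC_23 had 2.12 ± 0.50 and 1.62 ± 0.67, and the glycine gene TRNAG-UCC_21 1.85 ± 0.44 and -0.80 ± 0.59, in subcutaneous and visceral fat. The leucine genes TRNAL-CAA_5, TRNAL-CAA_1, TRNAL-CAG_11, TRNAL-UAG_3 and TRNAL-UAA_2 had 1.70, 1.38, 0.59, 0.45 and -0.01 in subcutaneous fat. The valine gene TRNAV-UAC_2 had 1.02, the histidine gene TRNAH-GUG_13 0.75, and the serine genes TRNAS-GCU and TRNAS-GCU_18 0.35 and 0.22. TRNAH-GUG_12 did not pass the filter on low counts in subcutaneous fat. Of the 15 tested there, groups overlapped for 6, TRNAL-UAG_3 among them at 24.8 to 47.5 against 40.6 to 50.3 CPM.

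The 4 microRNA genes had the smallest median of all types in subcutaneous fat, 0.67, with 0 called. MIR3955 had 15.1, 11.2, 7.36 and 16.2 CPM in subcutaneous controls, and its BPA libraries reached from within that range to 29.3 CPM. In visceral fat it had 14.1 to 26.6 CPM in controls and 20.6 to 104 CPM in BPA libraries (log2 1.57 ± 0.47; adjusted p = 0.658, edgeR). MIR22, MIRLET7B and MIR374B had log2 fold changes of 0.87 ± 0.33, 0.49 ± 0.35 and 0.50 ± 0.40 in subcutaneous fat.

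Among the 11 other ncRNA genes, LOC114117094 had the only lower estimate in subcutaneous fat. This gene of 140 bases in CHD3, a chromatin remodelling gene on chromosome 11, had 193, 234, 258 and 237 CPM in subcutaneous controls and 137, 182, 159 and 149 CPM in BPA libraries. Every BPA library lay below every control, with a log2 fold change of -0.55 ± 0.14, and it was the only member with that order and no overlap, against 3.18% of all genes. In visceral fat it had 61.9 to 142 CPM in controls and 85.1 to 135 CPM in BPA libraries. LOC114111317 in KHDC4 and LOC114114260 in CHD4, of 135 and 138 bases, had 2.36 ± 0.31 and 2.0 ± 0.27 in subcutaneous fat.

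Among the 13 unmatched genes, LOC114112289, of 116 bases on an unplaced sequence, had the highest estimate of all members. It had 13.5, 6.37, 12.2 and 11.0 CPM in subcutaneous controls and 102, 185, 214 and 91.7 CPM in BPA libraries. The fold change was 13.7 (log2 3.78 ± 0.33). Its visceral groups overlapped, at 10.4 to 27.3 CPM and 6.10 to 71.3 CPM (log2 0.83 ± 0.58). LOC114112366, of 118 bases, had lower levels, at 0.409 to 1.10 CPM against 5.61 to 11.3 CPM (log2 3.20 ± 0.40). It passed the rule through BPA libraries alone. LOC114113267, of 119 bases in EPB41, had 9.34 to 11.9 CPM against 39.7 to 69.5 CPM, and in visceral fat 20.8, 10.8, 3.45 and 1.22 CPM in controls and 11.8, 4.78, 4.04 and 1.2 CPM in BPA libraries. Its log2 fold changes were 2.40 ± 0.22 in subcutaneous and -0.73 ± 0.80 in visceral fat.

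Set side by side, 193 members were tested in both depots. Estimates were higher in both for 155, higher in subcutaneous and lower in visceral fat for 29, the reverse for 2 and lower in both for 7. The subcutaneous estimate was the larger for 155, including all 15 tRNA genes, 6 of 6 rRNA genes, 16 of 17 snRNA genes and 100 of 131 snoRNA genes. The difference between the BPA effects, fitted on all 16 libraries, was called for 0 of 206 members and 0% of 14793 genes by edgeR, with 46 members and 917 genes at an unadjusted p under 0.05. DESeq2 called 5 members, all with a smaller effect in visceral fat, among 11 genes. The median difference on the log2 scale, visceral minus subcutaneous, was -0.65 for the members and 0.016 for all genes, and -2.11 for rRNA, -0.96 for snRNA, -0.69 for tRNA and -0.56 for snoRNA members.

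**Figure D5:**
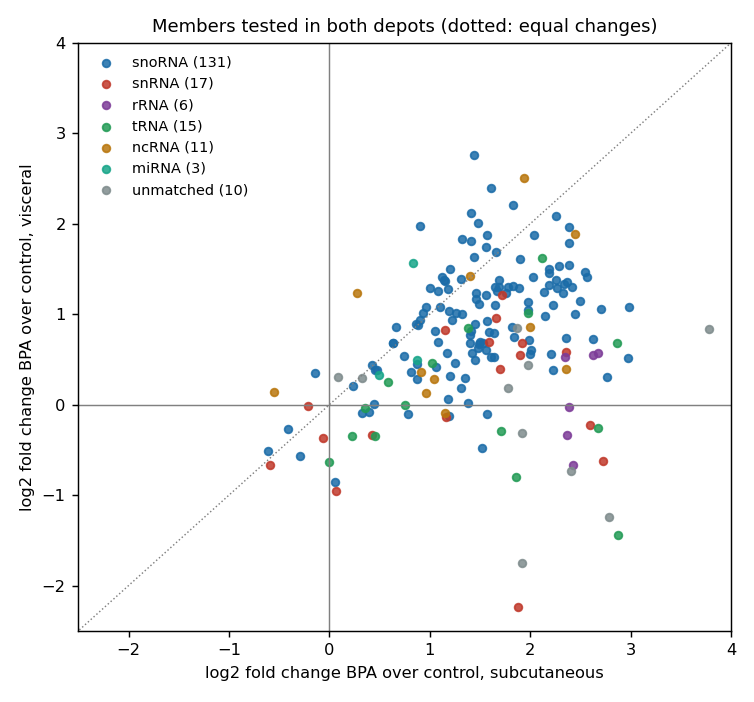
Each point is a member tested in both depots, with the log2 fold change, BPA over control, in subcutaneous fat on the horizontal axis and in visceral fat on the vertical axis, coloured by type. Most snoRNA points lie right of and above 0, while rRNA points and all but 1 tRNA point lie right of 0 and on both sides of 0 in visceral fat.

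Between depots, members were called in both directions among controls and in 1 among BPA libraries, which did not hold with a block. In controls, 14 of 194 members were called higher in visceral fat and 21 lower, where all genes had 7.17% and 6.16%. In BPA libraries, 0 of 197 were called higher and 35 lower, where all genes had 5.13% and 3.94%. With the title number as a replicate block, the counts were 39 higher and 22 lower in controls. There only numbers 902, 924 and 928 inform the depot difference, so that fit too had few residual degrees of freedom. In BPA libraries the counts were 30 higher and 19 lower, where that fit had 1 residual degree of freedom. Shares over all genes are not given for the blocked fits, so their counts are not read as a result about the members. All 7 rRNA members were called lower in visceral than in subcutaneous fat in BPA libraries, and 1 of 7 in controls. Both depot comparisons use libraries of the BPA comparisons, and the rule asked for counts in subcutaneous fat, so these counts are descriptions. LOC114111401 had a log2 difference, visceral minus subcutaneous, of -4.63 in BPA libraries and -0.51 in controls, and TRNAK-CUU_8 had 2.6 in controls and -0.34 in BPA libraries.

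Protein genes of the same pathways were also examined. In subcutaneous fat 0 genes were called among 34 tested snoRNA host genes (median log2 fold change -0.17), 18 proteins of snoRNA particles (0.19), 29 of spliceosomal particles (0.11), 30 of RNA polymerase III and its factors (0.21), 17 of tRNA processing (0.11), 11 of microRNA processing (-0.01) and 21 of RNA decay (0.17). Estimates were higher for 24 of the 29 spliceosomal genes and 22 of the 30 of RNA polymerase III. Summed levels of the spliceosomal genes did not overlap, at 1756 to 2194 CPM in controls and 2205 to 2638 CPM in BPA libraries. SNRNP70 alone had means of 275 and 476 CPM, within list means of 1958 and 2368 CPM. Those of RNA polymerase III did not overlap, at 1481 to 1621 and 1645 to 1924 CPM. The microRNA processing genes, with a median of -0.01, did not overlap in summed level either, at 944 to 1010 and 1020 to 1146 CPM. Their part in the members' values was not tested. In visceral fat the medians of the lists ran from -0.14 to 0.13, also with 0 called. At an unadjusted p under 0.05 these lists held 0 to 6 genes each in subcutaneous and 0 to 4 in visceral fat. Over all genes tested there were 1926 of 13535 in subcutaneous and 1103 of 14774 in visceral fat. Among the genes of highest count, DKC1, the pseudouridine synthase of snoRNA particles, had 0.31 ± 0.15 in subcutaneous and 0.35 ± 0.15 in visceral fat. SNRNP70, a protein of the spliceosome, had 0.79 ± 0.20 and 1.0 ± 0.37. In subcutaneous fat the host genes RPL4 and EEF2 had -0.32 ± 0.21 and -0.36 ± 0.20. The snoRNA particle and transport genes PHAX and NOLC1 had -0.14 and -0.19, and the spliceosome genes SNRNP200 and PRPF8 0.12 and 0.11. BDP1, POLR3GL and GTF3C1 of RNA polymerase III and its factors had 0.15, 0.21 and 0.25, and RNH1 and XPOT of tRNA processing 0.14 and 0.08. DICER1, AGO2 and DGCR8 of microRNA processing had 0.20, -0.01 and 0.42, and XRN1, MTREX and ZCCHC8 of RNA decay 0.17, 0.05 and 0.18. The 5 listed nuclear-retained long RNAs had no counts under those names in any library, so their level is not known. The red blood cell markers, at low levels, had 0 genes tested in subcutaneous fat.

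Markers of other cell types and the depth differed between the subcutaneous groups. All 9 tested macrophage markers of 11 had lower estimates in BPA libraries (median log2 fold change -0.96, 1 called), and their summed level was 612 to 856 CPM in controls and 329 to 527 CPM in BPA libraries. All 6 smooth muscle markers had higher estimates (median 0.51, 1 called), at 320 to 401 against 487 to 823 CPM. All 8 stromal markers had lower estimates (median -0.97, 2 called), at 6142 to 10128 against 3168 to 6257 CPM. Of all genes, 0.606% were called higher and 0.103% lower. Of 9 tested adipocyte markers, 8 had higher estimates and 1 a lower one (median 0.27, 0 called). Their summed level overlapped, at 10682 to 21004 against 13781 to 21921 CPM. The 5 tested lymphocyte markers had a median of -1.04 and the 7 endothelial markers -0.25, with 0 called. In visceral fat the smooth muscle markers had a median of 1.40, at 236 to 1010 CPM in controls and 560 to 3497 CPM in BPA libraries, with 0 called. Their part in the members' values was not tested. As totals were lower in subcutaneous BPA libraries, the fit was repeated with the library total as a covariate, where the members' median was 1.09 and 5 were called. With every library thinned at random to the lowest total the median was 1.53, and 65 were called, a count added after the data were seen.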

How the data were processed

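Counts of reads per gene in 16 libraries were deposited by the authors in 1 table. Per the submitters' processing notes the tools were FastQC 0.11.5, MultiQC 0.9, STAR 2.6.0c and featureCounts of Subread 1.6.1. The table is called normalized, but 0 values were other than whole numbers and totals ran from 3046126 to 14305764, and the values were used as raw counts. The deposited table also gives, per the file headers, an exon length in bases and positions for each gene. Build, strand setting and the handling of multiple matches: not given in the sources used here. Chromosome names were assigned to the table's sequences by the majority of gene names shared with a RefSeq table (ARS-UI_Ramb_v3.0), at least 94.9% for each. Gene types came from that table, which matched 177 of the 190 members other than tRNA genes, whose type was read from the identifier. No sequences are printed.

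Each comparison used its 8 libraries in edgeR 4.0.16 (R 4.3.3): filterByExpr with a minimum count of 10 and a minimum total of 15, TMM scaling and the quasi-likelihood test, two-sided. An adjusted p under 0.05 was called. CPM were computed from the TMM-scaled totals of all 16 libraries. Each standard error is the fold change divided by the root of the F statistic. Figures were drawn with matplotlib 3.10.9. The procedure was checked on simulated counts. In every pair of libraries at least 17998 genes had unequal counts, so no pair was counted as 1 sample.

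The members, lists, tests and alternatives were chosen with earlier results of these data known. Named genes are every tRNA member, the 3 other members of highest mean count in each length class, the 8 of smallest p in visceral fat, the 8 highest and 4 lowest subcutaneous fold changes, the named microRNA genes, the rows nearest each limit and the 3 genes of highest count in each list. Others, such as rRNA and further snRNA genes and hosts, were named after their values were seen, and some list genes are not reported here. Pairing was checked by the correlation of deviations from group means across genes. It was 0.287, 0.40 and 0.332 for control numbers 902, 924 and 928, and 0.167 and 0.031 for BPA numbers 918 and 977. Among subcutaneous libraries of the same treatment, visceral 902, 924, 928 and 918 each correlated best with their own number. Visceral 977 correlated best with subcutaneous 941. The main depot comparisons used no block, so they ignore any pairing by number. A replicate block was run as an alternative for controls and BPA libraries alike. Alternatives were DESeq2 1.42.0 as the test or for scaling, TMM without genes under 200 bases, other filters, a threshold of 0.10, robust moderation, 1 fit over all 16 libraries, a replicate block, the library total as a covariate, thinning, other member rules and omission of libraries.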

Additional observations from a re-analysis of the deposited data

Results flagged for a closer look

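Of 252 groups of 4 libraries examined, 14 held 1 library far from the other 3, by Dixon's criterion, and chance gives about 1 in 20. Among shares of counts, subcutaneous control 931 stood above its group for all members (0.436% against 0.332 to 0.344%) and for members in same-strand introns (0.270% against 0.194 to 0.204%). Visceral control 908 was low for other ncRNA members (0.0105% against 0.0184 to 0.0190%), and visceral BPA library 984 for rRNA members (0.00333% against 0.0117 to 0.0133%).

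Among tRNA genes, subcutaneous control 902 was low for TRNAR-CCU_7 (0.311 CPM against 1.23 to 1.38) and control 931 high for TRNAR-CCG_1 (5.32 CPM against 2.06 to 2.51). Subcutaneous BPA library 922 was low for TRNAL-CAG_11 (3.16 CPM against 4.69 to 4.74). Visceral BPA library 977 was high for TRNAL-CAA_1 (40.0 CPM against 13.6 to 17.4), and 984 low for TRNAK-CUU_8 (14.2 CPM against 39.4 to 44.5).

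Visceral BPA library 910 stood above its group for the snRNA gene LOC114111401 (91.2 CPM against 2.56 to 16.9) and for LOC114111409 (21.1 CPM against 1.88 to 4.64). Subcutaneous control 931 was high for the snoRNA gene LOC114111305 (28.8 CPM against 13.3 to 13.6), visceral control 908 for LOC114114237 (1.80 CPM against 1.14 to 1.25), and subcutaneous BPA library 941 was low for MIR374B (2.05 CPM against 2.88 to 2.93).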

How the results depend on the processing

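Of 71 members called in subcutaneous fat, the count was 38 with a filter of 50 counts, 135 by DESeq2 (134 higher, 1 lower), 23 in the fit of all 16 libraries, 5 with the library total as a covariate and 110 at a threshold of 0.10. It ranged from 23 to 75 when 1 library was left out and was 0 without controls 902 and 924 together. For most settings in this paragraph the share of all genes called is not given. The counts of members therefore describe how calls moved and do not set members against other genes. Of 17 called members that the rule for named genes chose, 7 were called in all 8 omissions of 1 library: LOC114111401, LOC114111409, LOC114112289, LOC114112366, LOC114115462, LOC114116239 and TRNAK-CUU_8. The member rule read these libraries, and LOC114112366 reached a count of 10 in BPA libraries and in no control, so these calls support nothing further. In visceral fat DESeq2 called 1 member, LOC114113403, and the other alternatives 0. For the difference between depots DESeq2 called 5 and the replicate block 0. In the control depot comparison (35 called) the count was 23 with a filter of 50 counts, 53 by DESeq2 and 18 in the fit of all 16 libraries. It was 61 with the replicate block, which rests on numbers 902, 924 and 928 alone, and 56 at 0.10. With 1 library left out it was 18 to 34, lowest without visceral control 928 and 23 without subcutaneous control 902, 924 or 928. In the BPA depot comparison (35 called) it was 21, 56, 53, 49 (30 higher, 19 lower, on 1 residual degree of freedom) and 55 under the same settings, and 15 to 63 with 1 library left out, lowest without subcutaneous 922 or 941 and highest without visceral 977. The members' median moved to 1.09 (subcutaneous) and 0.16 (visceral) with the covariate and kept its sign under the other alternatives run, DESeq2 size factors and thinning among them. Some estimates changed sign. With the covariate, MIRLET7B moved from 0.49 to -0.11 and TRNAL-UAA_2 from -0.01 to 0.23. With 1 library left out, TRNAL-UAA_2 ranged from -0.275 to 0.276. It was 0.0074 without BPA 941, 0.276 without BPA 977, and 0.052 and 0.051 without controls 928 and 931. TRNAS-GCU_18 ranged from -0.0256 (without control 924) to 0.514. Members with 30 counts in place of 10 numbered 124, and 232 had 10 counts in 8 of the 16 libraries, 200 of them shared with the 206. Counts of 10 or fewer limit single low genes.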
